A study of Rattus norvegicus with 30 samples.

Results

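The genes described are 10 components of transforming growth factor beta (TGF-beta) signalling: the ligands Tgfb1, Tgfb2 and Tgfb3, the receptors Tgfbr1, Tgfbr2 and Tgfbr3, and the latent TGF-beta binding proteins Ltbp1, Ltbp2, Ltbp3 and Ltbp4. They were chosen by gene name and not by their values, though with earlier results of these data known. They are 10 of the 30562 genes in the count table, with 1 entry for each name. All 10 were among the 16171 genes with enough counts to be tested. The study measured, by bulk RNA sequencing, the lung cells of Wild-type rats retained by microbeads against CD31, an endothelial surface protein. Lungs were taken 3 weeks after a Glenn operation, which joins a caval vein directly to a pulmonary artery, or after a sham operation. After surgery the rats ate a modified diet with control, deficient or excess Vitamin A. The 30 libraries form 6 groups of 5: sham surgery with the control diet, sham surgery with the deficient diet, sham surgery with the excess diet, and Glenn surgery with the same 3 diets. Age and strain are not given in the sources used here, every group carries the Wild-type genotype, and the cells are a bead-enriched fraction and not a pure endothelial population.

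TGF-beta ligands are secreted in a latent form, held by a propeptide that the latent TGF-beta binding proteins link to fibrillin and fibronectin fibres of the matrix. Integrins, thrombospondin and proteases free the ligand, which binds the type II receptor (Tgfbr2). The type II receptor then activates the type I receptor (Tgfbr1), and SMAD proteins carry the signal to the nucleus. Betaglycan (Tgfbr3) presents ligand to the type II receptor. Endothelial cells have a parallel route through the receptor Acvrl1 and its partner endoglin, and both routes are known for their part in vessel growth and stability in the lung.

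Levels are counts scaled to library size (CPM, with TMM factors) and are compared between libraries and not between genes, because gene lengths were not used. Libraries held 22.03 to 77.6 M counts (median 40.0 M). The summed level of 5 endothelial markers (Pecam1, Cdh5, Tek, Cldn5 and Erg) was 5997 to 7812 CPM in sham and 4443 to 6214 CPM in Glenn libraries. Other cells were also represented: 5 type 2 alveolar markers summed to 36096 to 62014 CPM in sham and 25578 to 58251 CPM in Glenn libraries. The library numbers fall into 2 ranges, called series A (22 libraries) and series B (8 libraries) here, and both control-diet groups and the sham excess group hold series A only, so the series was a term of the fit. RT1-CE16, a class I histocompatibility gene, was below 100 CPM in 17 libraries, among them all 5 sham excess libraries, and above it in the other 13, among them all 8 of series B. Each group held male and female libraries by the Y-linked gene Ddx3y, so no group came from a single animal. The labels do not say that every replicate is a separate animal, so the p-values measure the spread between these samples, part of which may be technical.

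Glenn surgery, averaged over the 3 diets, came with higher levels of 6 of the 10 genes and a lower level of 1. Tgfb3 was 1.82 times, Tgfbr2 1.53 times, Ltbp3 1.502 times, Tgfb1 1.41 times, Ltbp4 1.25 times and Tgfbr1 1.15 times the sham level, and Tgfbr3 was 0.862 times it. Tgfb2, Ltbp1 and Ltbp2 did not pass the test in the average. The 7 called genes (adjusted p under 0.05) stand beside 48.2% of all 16171 genes called in the same comparison, of which 23.4% were higher and 24.7% lower. The median log2 change was 0.26 over the 10 genes and -0.01 over all genes tested. Bulk levels do not separate a change in the share of a cell type from a change in RNA per cell, and the 2 cannot be told apart here.

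**Figure D1:**
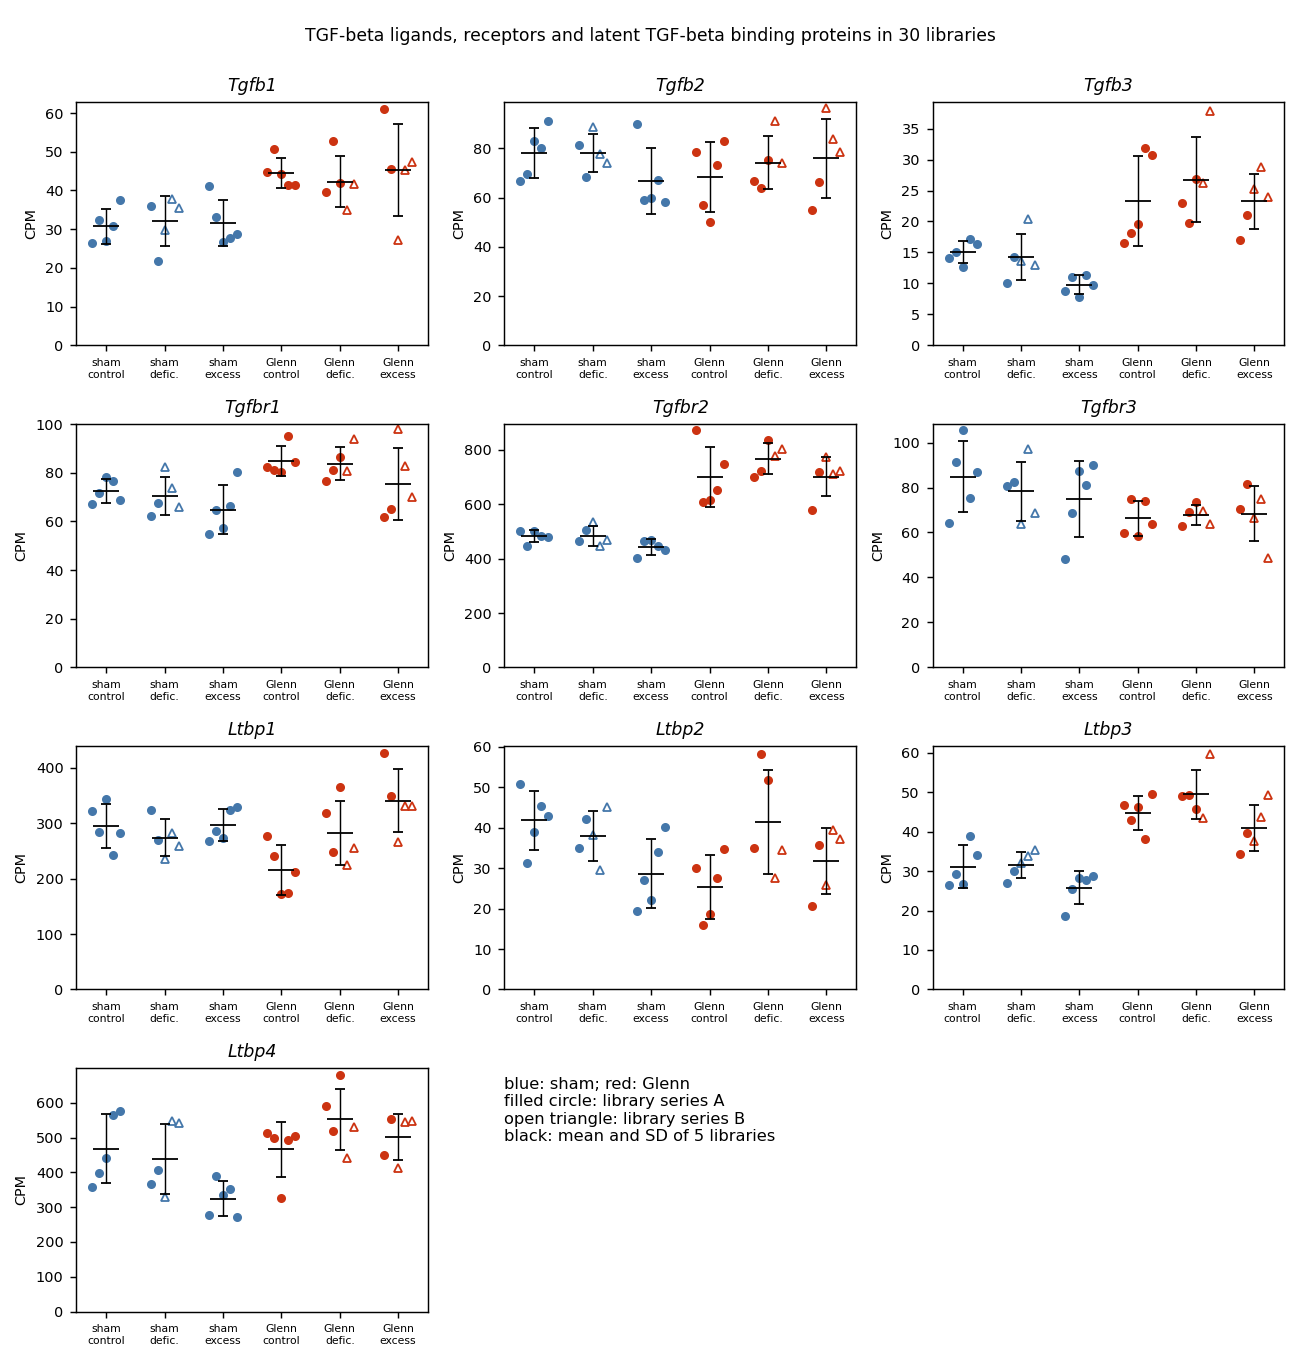
Level of each of the 10 genes in CPM (vertical axis, from 0) in the 30 libraries by group, with blue for sham and red for Glenn, circles for series A and triangles for series B, and black lines for the mean and SD of 5 libraries. The Tgfbr2 panel separates the operations completely (401 to 533 CPM against 579 to 872 CPM), while Ltbp1 spans 172 to 427 CPM in Glenn libraries and 235 to 343 CPM in sham libraries.

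The promoters of the 3 genes that were higher on every diet (Tgfb3, Tgfbr2 and Ltbp3) and of Ltbp1, whose level differed between diets, are shown for reference. Sequences are from RefSeq for GRCr8, a later assembly than the one used for the counts, and run 5′ to 3′ from 250 bases before to 50 bases after the annotated start. They lie at chr6:111456897-111457196 on the minus strand (Tgfb3), chr8:124761420-124761719 on the minus strand (Tgfbr2), chr1:212458955-212459254 on the plus strand (Ltbp3) and chr6:26177252-26177551 on the minus strand (Ltbp1). Capitals mark matches to 2 of the motifs searched, the CCAAT box and the GC box, on either strand.
Tgfb3: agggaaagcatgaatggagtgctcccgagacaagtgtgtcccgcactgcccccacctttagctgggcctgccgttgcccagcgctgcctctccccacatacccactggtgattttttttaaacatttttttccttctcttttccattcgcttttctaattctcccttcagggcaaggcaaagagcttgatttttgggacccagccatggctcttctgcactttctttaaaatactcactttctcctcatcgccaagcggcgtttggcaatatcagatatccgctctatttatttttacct
Tgfbr2: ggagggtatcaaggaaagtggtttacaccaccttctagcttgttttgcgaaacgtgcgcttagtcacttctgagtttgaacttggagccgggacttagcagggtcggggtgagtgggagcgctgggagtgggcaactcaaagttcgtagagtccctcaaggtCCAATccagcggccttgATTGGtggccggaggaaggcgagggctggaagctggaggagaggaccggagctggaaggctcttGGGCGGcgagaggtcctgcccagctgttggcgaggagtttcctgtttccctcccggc
Ltbp3: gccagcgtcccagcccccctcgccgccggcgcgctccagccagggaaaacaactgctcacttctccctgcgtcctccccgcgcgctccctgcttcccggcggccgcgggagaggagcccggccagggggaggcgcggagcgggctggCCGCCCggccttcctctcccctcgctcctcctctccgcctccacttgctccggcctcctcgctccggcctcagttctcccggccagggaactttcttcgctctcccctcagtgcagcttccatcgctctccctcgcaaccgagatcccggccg
Ltbp1: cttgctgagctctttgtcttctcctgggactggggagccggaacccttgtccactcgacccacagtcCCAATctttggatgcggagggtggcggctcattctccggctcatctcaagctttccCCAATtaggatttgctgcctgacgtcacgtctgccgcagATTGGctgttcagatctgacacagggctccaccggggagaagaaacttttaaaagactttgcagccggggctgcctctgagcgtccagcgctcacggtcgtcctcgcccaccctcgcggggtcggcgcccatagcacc

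A promoter was matched by symbol for all 10 genes. Both strands were searched. The GC box (GGGCGG) was found in 6 of them (Tgfbr1, Tgfbr2, Tgfbr3, Ltbp2, Ltbp3 and Ltbp4), against 33.1% of 33469 rat promoters of the same length. The CCAAT box (CCAAT) was found in 4 (Tgfbr1, Tgfbr2, Ltbp1 and Ltbp4), against 37.5%. The Ltbp1 window holds 3 CCAAT matches, starting at -183, -127 and -88 from the start site, and the Tgfbr2 window holds 2, at -88 and -71, beside a GC box at -7. The SMAD box CAGACA was in 0 of 10 against 21.1% of promoters, the AP-1 site TGACTCA in 0 against 4.63%, and the retinoid receptor half-site AGGTCA in 0 against 16.2%. These matches describe the letters of a short window only, and no motif overlapped another in the 4 sequences shown.

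Among the ligands, Tgfb3 had the largest change of the 10 genes in this average. On the control diet its level was 14.2, 15.1, 12.7, 17.2 and 16.3 CPM in the 5 sham libraries and 16.5, 18.2, 19.6, 31.8 and 30.7 CPM in the 5 Glenn libraries. The deficient diet gave 10.1, 14.3, 13.6, 20.3 and 12.9 CPM in sham and 23.1, 19.7, 26.9, 26.3 and 37.8 CPM in Glenn libraries, and the excess diet gave 8.74, 11.04, 7.82, 11.4 and 9.80 CPM and 17.0, 21.1, 25.3, 28.8 and 23.98 CPM. All 15 Glenn libraries lay above the sham median, and 10 of them lay above the highest sham library. The mean was 13.0 ± 3.38 CPM in sham and 24.5 ± 6.09 CPM in Glenn libraries (SD, n = 15 each). The log2 change was 0.86 (SE 0.10, adjusted p = 2.87e-08). By diet it was 0.63 (control), 0.98 (deficient) and 0.98 (excess), and each passed the test (adjusted p = 0.00607, 6.65e-05 and 0.000287). The 2 groups did not overlap on the excess diet, as for 16.3% of all genes.

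Tgfb1, the ligand most studied in fibrosis and vessel repair, was 31.5 ± 5.31 CPM in sham and 44.0 ± 7.71 CPM in Glenn libraries (SD, n = 15 each). Control-diet sham libraries read 26.3, 32.3, 27.0, 30.8 and 37.4 CPM, and control-diet Glenn libraries read 44.8, 50.8, 44.3, 41.4 and 41.4 CPM, with no overlap, as for 17.2% of all genes. The log2 change averaged over diets was 0.50 (SE 0.09, adjusted p = 7.11e-05), and 14 of 15 Glenn libraries were above the sham median. It was higher on the control (0.53, adjusted p = 0.0145) and excess diets (0.60, adjusted p = 0.0142). On the deficient diet the change was 0.35 (adjusted p = 0.115), and in series A alone it was 0.64 and called (adjusted p = 0.0409). On the excess diet 1 Glenn library, replicate 1, read 60.9 CPM while replicate 3 read 27.3 CPM, and without replicate 1 the change was 0.42 (adjusted p = 0.124).

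Tgfb2, the ligand that depends most on betaglycan for binding, was 74.4 ± 11.3 CPM in sham and 72.9 ± 13.2 CPM in Glenn libraries (SD, n = 15 each), with ranges of 58.3 to 91.3 CPM and 50.2 to 96.6 CPM that overlapped widely. Its log2 change was -0.07 (SE 0.08, adjusted p = 0.458), and it passed the test on no diet. Of the 3 ligands, 2 rose in the average, and the change of Tgfb2 was smaller than its standard error.

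Among the receptors, Tgfbr2, the type II receptor that binds the ligand first, was the only one of the 10 genes whose 15 Glenn libraries all lay above all 15 sham libraries, which held for 5.83% of all genes tested (either direction). Sham libraries read 502, 447, 504, 483 and 479 CPM on the control diet, 463, 505, 533, 447 and 468 CPM on the deficient diet, and 401, 464, 470.4, 448 and 432 CPM on the excess diet. Glenn libraries read 872, 608, 618, 654 and 750.0 CPM on the control diet, 701, 723, 835, 778 and 805 CPM on the deficient diet, and 579, 720.0, 774, 712 and 723 CPM on the excess diet. The lowest Glenn library (579 CPM) was above the highest sham library (533 CPM), and within each operation the 3 diets overlapped. The log2 change was 0.61 (SE 0.05, adjusted p = 3.66e-11), and it was 0.54, 0.68 and 0.61 on the control, deficient and excess diets (adjusted p = 2.14e-05, 5.83e-07 and 2.05e-05).

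Tgfbr1, the type I receptor that phosphorylates SMAD proteins, was 69.2 ± 8.01 CPM in sham and 81.3 ± 10.2 CPM in Glenn libraries (SD, n = 15 each). The change was small, 0.20 on the log2 scale (SE 0.05, adjusted p = 0.00333), with 13 of 15 Glenn libraries above the sham median and 7 above the highest sham library. On the deficient diet it passed the test (log2 change 0.30, adjusted p = 0.0175), though not without the series term (0.25, adjusted p = 0.074) or in series A alone (0.33, adjusted p = 0.0631). Without sham replicate 5 of that diet the change was 0.26 (adjusted p = 0.0506). The control diet gave 0.23 (adjusted p = 0.077). Its 5 Glenn libraries (80.5 to 95.3 CPM) all lay above its 5 sham libraries (67.0 to 78.1 CPM), a separation seen for 17.2% of all genes (either direction). Tgfbr1 was called on this diet in series A alone (0.24, adjusted p = 0.039), with the RT1-CE16 term (0.26, adjusted p = 0.0356) and with only these 2 groups in the fit (0.23, adjusted p = 0.0233).

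Tgfbr3, which encodes betaglycan, was the 1 gene called lower in the average: 79.3 ± 14.8 CPM in sham and 67.5 ± 8.20 CPM in Glenn libraries (SD, n = 15 each). Its log2 change was -0.21 (SE 0.09, adjusted p = 0.0424), and 14 of 15 Glenn libraries were below the sham median, though both sets overlapped (48.2 to 105 CPM against 48.9 to 81.6 CPM). The call was marginal: it was lost when any 1 of 17 of the 30 libraries was left out (adjusted p up to 0.108, without sham deficient replicate 4). On the control diet its change was -0.35 (adjusted p = 0.0812), and it was called without sham control replicate 1 (-0.44, adjusted p = 0.0307). The deficient and excess diets did not pass the test. The 2 signalling receptors were called higher and the accessory receptor lower.

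Among the latent TGF-beta binding proteins, Ltbp3 changed most steadily with surgery. Sham libraries read 26.4, 29.4, 26.7, 39.0 and 34.1 CPM on the control diet, 27.0, 29.9, 32.0, 33.8 and 35.3 CPM on the deficient diet, and 18.5, 25.5, 28.1, 27.8 and 28.7 CPM on the excess diet. Glenn libraries read 46.7, 43.0, 46.1, 38.2 and 49.6 CPM, then 49.0, 49.2, 45.7, 43.4 and 59.6 CPM, then 34.4, 39.6, 37.7, 43.7 and 49.2 CPM on the same diets. On the deficient and excess diets the groups did not overlap (as for 19.6% and 16.3% of all genes), and on the control diet they met at 1 library each (39.0 CPM in sham replicate 4 and 38.2 CPM in Glenn replicate 4). The log2 change was 0.59 (SE 0.07, adjusted p = 2.10e-08) in the average, and 0.52, 0.69 and 0.55 on the control, deficient and excess diets (adjusted p = 0.000897, 4.16e-05 and 0.00196).

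Ltbp4, the binding protein that also guides elastic fibre assembly, was 411 ± 102 CPM in sham and 507 ± 81.2 CPM in Glenn libraries (SD, n = 15 each). It rose by 0.32 on the log2 scale (SE 0.09, adjusted p = 0.00588). The sham excess libraries were the lowest of the 6 groups, at 277, 389, 335, 352 and 271 CPM, and the Glenn excess libraries read 449.7, 554, 411, 545 and 549 CPM. These 2 groups did not overlap, as for 16.3% of all genes. Ltbp4 passed the test on the excess diet (0.63, adjusted p = 0.011), although without Glenn replicate 2 of that diet it gave 0.56 (adjusted p = 0.0562). The deficient diet gave 0.33 (adjusted p = 0.144), and this change was called at 0.63 in series A alone (adjusted p = 0.0494) and at 0.62 in the libraries with low RT1-CE16 (adjusted p = 0.0378). On the control diet the change was -0.004 (SE 0.16, adjusted p = 0.99). Ltbp2, a matrix protein of elastic fibres that does not itself bind latent ligand, was 36.2 ± 8.97 CPM in sham and 32.9 ± 11.4 CPM in Glenn libraries (SD, n = 15 each), with a log2 change of -0.13 (SE 0.14, adjusted p = 0.452).

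Diet by diet, 6 of the 10 genes were called on the control diet (4 higher and 2 lower), beside 24.9% of all genes (11.8% higher and 13.1% lower). On the deficient diet 4 were called, all higher, beside 27.4% of all genes, or 13.7% called higher. On the excess diet 6 were called, all higher, beside 21.9% of all genes, or 11.6% called higher. Tgfb3, Tgfbr2 and Ltbp3 were higher on all 3 diets, 3 of 10 genes, where 7.05% of all genes were, and 0 of the 10 were lower on all 3, where 6.46% of all genes were. The 2 genes that fell on the control diet were Ltbp1 (log2 change -0.45, SE 0.12, adjusted p = 0.00617) and Ltbp2 (-0.72, SE 0.23, adjusted p = 0.0233). Ltbp2 read 50.8, 31.2, 38.9, 45.5 and 42.9 CPM in sham and 29.9, 16.0, 18.6, 27.5 and 34.8 CPM in Glenn libraries of that diet. The 2 groups overlapped, and the Ltbp2 call was lost without sham control replicate 1 (adjusted p = 0.0588), Glenn control replicate 2 (0.0722) or Glenn control replicate 3 (0.0693).

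Fits limited to libraries of a single RT1-CE16 level called fewer genes on the control diet. With that level as a term in place of the series, no control-diet call of the 10 genes was lost. Tgfbr1 was called as well in that fit (0.26, adjusted p = 0.0356). Among libraries below 100 CPM of RT1-CE16, 2 of the 10 genes were called on the control diet, Tgfbr2 and Ltbp3. All genes called fell there from 4023 to 1563. The log2 changes of Tgfb1 and Tgfb3 were 0.68 (adjusted p = 0.064) and 0.32 (adjusted p = 0.36). Among libraries above 100 CPM, 3 of the 10 were called, beside 2497 of all genes. They were Tgfb3 (1.03, adjusted p = 0.00289), Tgfbr2 (0.53, adjusted p = 0.00228) and Ltbp1 (-0.58, adjusted p = 0.0203). The Tgfb3 values of the Glenn control group follow the same split, at 31.8 and 30.7 CPM in its 2 libraries above 100 CPM of RT1-CE16 and 16.5 to 19.6 CPM in the other 3. Fewer libraries enter each of the limited fits.

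**Figure D2:**
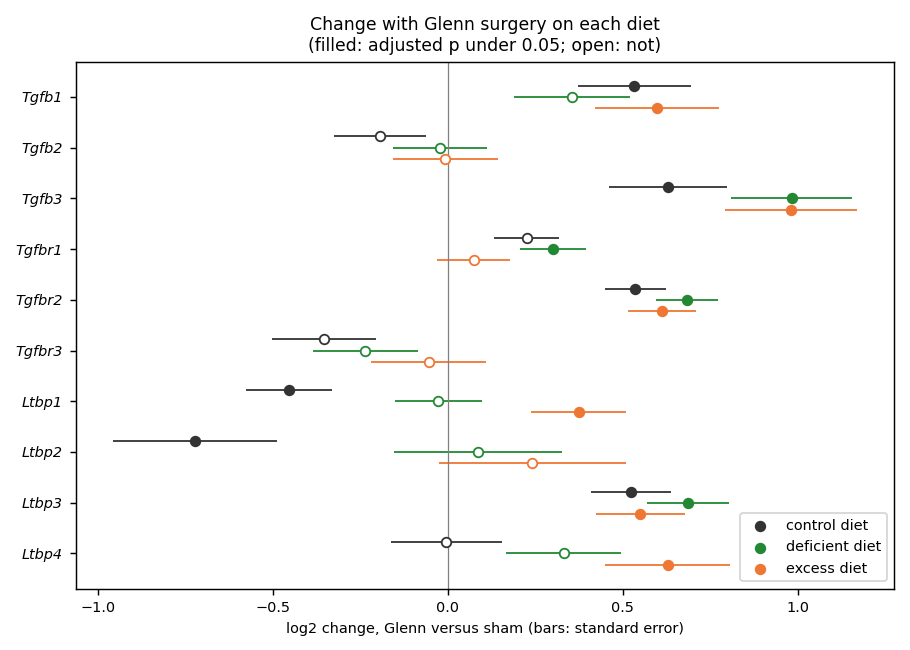
Log2 change between Glenn and sham libraries on each diet (horizontal axis) for the 10 genes, with bars for the standard error and filled points for an adjusted p under 0.05. Tgfb3, Tgfbr2 and Ltbp3 are filled on all 3 diets, and Ltbp1 moves from -0.45 on the control diet to 0.37 on the excess diet.

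Diet was compared within each operation, and the deficient and excess contrasts of one operation share the same control-diet libraries. Among Glenn rats, the excess diet came with a higher level of Ltbp1, the binding protein that anchors latent ligand to fibronectin and fibrillin, and of no other of the 10 genes, beside 1.47% of all genes called (0.89% higher). Glenn libraries on the control diet read 277, 241, 172, 174 and 212 CPM. Those on the deficient diet read 318, 248, 365, 225 and 255 CPM, and those on the excess diet read 427, 350.0, 266, 331 and 332 CPM. All 5 excess libraries were above the control median and 4 of 5 were above the highest control library, while replicate 3 (266 CPM) fell inside the control range.

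The log2 change of Ltbp1 between excess and control diets in Glenn rats was 0.84 (SE 0.14, adjusted p = 0.00356), with means of 341 ± 57.6 and 215 ± 45.1 CPM (SD, n = 5 each). The 3 series B libraries of the Glenn excess group read lower than its 2 series A libraries, and the change was 0.66 (adjusted p = 0.039) without the series term and 0.85 (adjusted p = 0.0149) in series A alone. Without Glenn excess replicate 1, the library at 427 CPM, it was 0.76 (adjusted p = 0.068), and all genes called in this comparison fell from 237 to 2. It was 0.75 (adjusted p = 0.127) in the libraries with low RT1-CE16 and 0.82 (adjusted p = 0.087) with only these 2 groups in the fit.

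In sham rats the Ltbp1 levels of the 3 diets lay close together. Sham libraries read 322, 284, 343, 242 and 283 CPM on the control diet, 324, 270.5, 235, 282 and 259 CPM on the deficient diet, and 268, 287, 273, 324 and 329.9 CPM on the excess diet. These groups overlapped, and the excess diet differed from the control diet by 0.01 on the log2 scale (SE 0.12, adjusted p = 0.99). By mean level the order of the 6 groups was Glenn excess (341 CPM), sham excess (296 CPM), sham control (295 CPM), Glenn deficient (282 CPM), sham deficient (274 CPM) and Glenn control (215 CPM), and the 4 groups in the middle lay within 1 SD of each other.

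The effect of surgery on Ltbp1, by diet, was -0.45 on the control diet, -0.03 on the deficient diet (adjusted p = 0.900) and 0.37 with excess Vitamin A (SE 0.14, adjusted p = 0.047). The interaction test, which asks whether the surgery effect differs between diets, was not past the threshold for Ltbp1 (adjusted p = 0.25). That test called 0 of the 10 genes and 0.00618% of all genes. An unadjusted p under 0.05 was held by 925 of all 16171 genes and by 3 of the 10 (Ltbp1, Ltbp2 and Ltbp4). DESeq2 called 1 of the 10, Ltbp1 (adjusted p = 0.0322), beside 35 of all genes in place of 1. With edgeR the call was reached without Glenn control replicate 1 (adjusted p = 0.0492), beside 14 of all genes. The rise on the excess diet depended on the settings: without the series term it was 0.20 (adjusted p = 0.295), and the call was lost when any 1 of 7 of its 10 libraries was left out (adjusted p up to 0.177, without Glenn excess replicate 1).

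**Figure D3:**
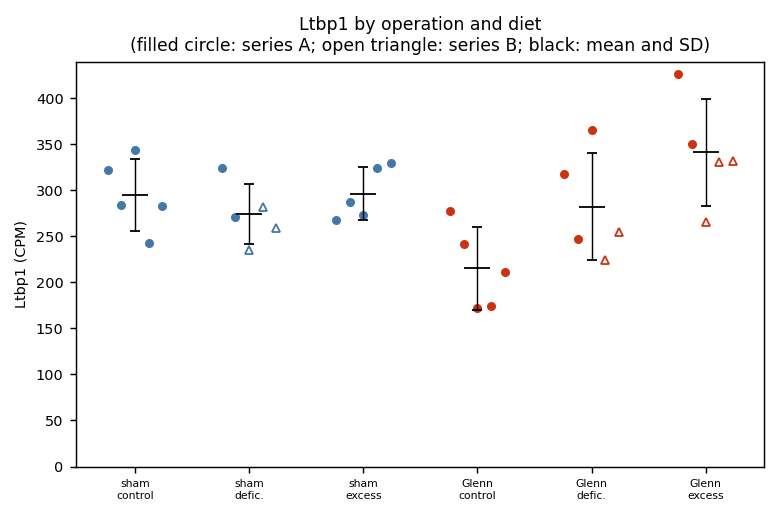
Ltbp1 level in CPM (vertical axis, from 0) in the 30 libraries by operation and diet, with circles for series A, triangles for series B and black lines for the mean and SD of 5 libraries. Glenn means were 215 CPM (control diet), 282 CPM (deficient) and 341 CPM (excess), and sham means lay between 274 and 296 CPM. The interaction test did not call Ltbp1 (adjusted p = 0.25).

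The other diet contrasts called none of the 10 genes with edgeR. Excess against control diet in sham rats called 0, beside 0.241% of all genes. An unadjusted p under 0.05 was held by 1788 of all 16171 genes and by 4 of the 10. The lead among these was Tgfb3, whose 5 sham excess libraries (7.82 to 11.4 CPM) all lay below the 5 sham control libraries (12.7 to 17.2 CPM), a separation seen for 2.19% of all genes. Its log2 change was -0.63 (SE 0.17, adjusted p = 0.12). DESeq2 called it (adjusted p = 0.0331), beside 210 of all genes in place of 39. All 5 sham excess libraries were low in RT1-CE16 while 3 of 5 sham control libraries were high. With that level in place of the series the change was -0.38 (adjusted p = 0.625), and in the low libraries alone it was -0.59 (adjusted p = 0.804). Ltbp4 (-0.53, adjusted p = 0.17), Ltbp2 (-0.55, adjusted p = 0.369) and Ltbp3 (-0.28, adjusted p = 0.36) were the other 3.

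Deficient against control diet called 0 of the 10 genes in Glenn rats, beside 0.00618% of all genes. An unadjusted p under 0.05 was held by 1598 of all 16171 genes and by 2 of the 10. The 2 were Ltbp1 (0.50, SE 0.13, adjusted p = 0.188) and Ltbp2 (0.75, SE 0.24, adjusted p = 0.299), both with higher values on the deficient diet. DESeq2 and limma voom each called Ltbp1 there (adjusted p = 0.044 and 0.0419), as did edgeR without Glenn control replicate 1 (adjusted p = 0.0287). All genes called were 63, 43 and 60 in these fits, in place of 1. In sham rats the same contrast called 0 of the 10 genes, beside 0% of all genes. An unadjusted p under 0.05 was held by 844 of all 16171 genes and by 0 of the 10. DESeq2 and limma voom also called 0 of the 10. Tgfbr1 in Glenn rats was lower on the excess than the control diet by 0.31 on the log2 scale without passing the test (adjusted p = 0.137), and it passed without Glenn excess replicate 3 (-0.40, adjusted p = 0.0282).

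Markers of several cell types were called in the comparison averaged over diets. The counts in this paragraph stand beside 23.4% of all genes called higher and 24.7% called lower. All 8 mural markers (pericyte and smooth muscle) were called higher, and their summed level was 112 to 286 CPM in sham and 355 to 1629 CPM in Glenn libraries. Of 8 fibroblast markers 7 were called higher, with sums of 1282 to 3269 CPM and 1815 to 4701 CPM. Lymphatic markers were higher in 5 of 5 (646 to 1157 CPM against 1015 to 1644 CPM), and 4 of 5 general capillary markers were lower (5611 to 8838 CPM against 2430.1 to 5692 CPM). None of these listed genes was at 0 in every library. All 5 type 2 alveolar markers were called lower, with the sums given above, and of the 5 endothelial markers 3 were lower and 1 higher. Arterial markers were higher in 4 of 5 and lower in 1, while 3 of 5 aerocyte and 3 of 5 venous markers were lower and 1 of each higher. Of 5 type 1 alveolar markers 3 were higher and 1 lower, and of 7 leukocyte markers (4 tested) 2 were lower. All 5 platelet markers were called lower (25.4 to 102 CPM against 21.5 to 94.1 CPM) (platelets are known as a store of Tgfb1 protein).

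With the mural and fibroblast scores as covariates, from markers that are neither among the 10 genes nor in the pathway lists, 3 of the 10 genes were called in the averaged comparison. All genes called in that comparison fell as well, from 7792 to 2171. Tgfbr2 was higher by 0.48 (adjusted p = 0.00478) and Tgfb1 by 0.69 (adjusted p = 0.0289), while Ltbp2 was lower by 1.01 on the log2 scale (adjusted p = 0.011). Tgfb3 had a change of 0.51 (adjusted p = 0.102), Ltbp3 of 0.25 (adjusted p = 0.279), Tgfbr1 of 0.11 (adjusted p = 0.646) and Ltbp4 of -0.0031 (adjusted p = 0.995). Tgfbr3 also lost its call (adjusted p = 0.58), with a change of -0.21 in both fits. The Ltbp1 difference between excess and control diets in Glenn rats was 0.86 (adjusted p = 0.00143) in this fit. The sums of all 8 mural markers do not overlap between the operations, and the score uses only some of these markers. Each of them was called higher with surgery, so surgery and mural content cannot be told apart in this fit.

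**Figure D4:**
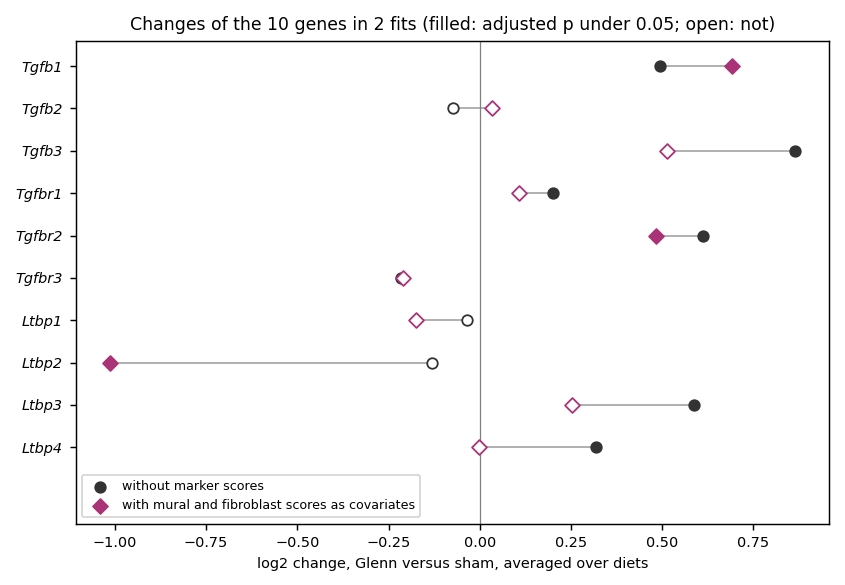
Log2 change between Glenn and sham libraries averaged over diets (horizontal axis) for the 10 genes, without marker scores (circles) and with mural and fibroblast scores as covariates (diamonds), filled where the adjusted p was under 0.05. Tgfbr2 and Tgfb1 stay filled, Ltbp4 moves from 0.32 to -0.0031, and Ltbp2 moves from -0.13 to -1.01.

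The pathway around these genes was read from 5 lists of other TGF-beta genes, in the comparison averaged over diets. Their counts stand beside the same 23.4% of all genes called higher and 24.7% called lower. Of 14 genes that hold or release latent ligand, 8 were called higher, 2 lower and 4 neither. Thbs1, thrombospondin, which frees ligand from its propeptide, was 458 ± 79.3 CPM in sham and 1033 ± 199 CPM in Glenn libraries (SD, n = 15 each) and rose by 1.23 (SE 0.08, adjusted p = 5.72e-14). The proteases Mmp14 (1.05) and Mmp2 (1.51) rose as well, as did Lrrc32 (0.99), which tethers latent ligand at the cell surface. The integrin subunits, chosen after their values were seen, went in both directions: Itgb5 (-0.75) and Itgb3 (-0.49) were the 2 called lower, Itgb6 was called higher (0.48), and Itgav, Itgb1 and Itgb8 were not called.

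Of 9 matrix partners of the latent complexes, 8 were called higher, 0 lower and 1 neither, with a median log2 change of 1.03. Fn1, fibronectin, which binds Ltbp1, had the largest change of the 4 named by their test (1.73, adjusted p = 5.73e-10), from 104 ± 33.4 to 332 ± 144 CPM (SD, n = 15 each). Fbln5 (1.62), Emilin1 (1.52) and Bgn (0.79) were also higher. Most of these genes are made by fibroblasts and mural cells, whose markers were higher too, as given above, and the part of those cells in these changes was not tested.

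The co-receptor list had the opposite balance, with 1 of 8 genes higher and 5 lower. Eng, endoglin, was 2287 ± 283 CPM in sham and 821 ± 179 CPM in Glenn libraries (SD, n = 15 each) and fell by 1.45 on the log2 scale (SE 0.07, adjusted p = 3.11e-16). Acvrl1, the type I receptor that endoglin works with, went from 1713 ± 122 CPM to 644 ± 147 CPM and fell by 1.39 (adjusted p = 6.11e-16). Nrp1 fell by 0.74 and Nrp2 was higher by 0.62. Eng and Acvrl1 were also called higher on the excess than the control diet among Glenn rats (0.52, adjusted p = 0.0389, and 0.52, adjusted p = 0.0344), and Vasn, a ligand trap, was lower (-0.65, adjusted p = 0.0197). These 3 were the only genes of the 5 lists called in that contrast and were chosen after their values were seen. All genes called in that contrast fell from 237 to 2 without Glenn excess replicate 1. Whether these 3 calls depend on that library is not reported here.

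Of 10 intracellular SMAD genes and regulators tested (Tgif2 was under the filter), 4 were higher and 2 lower, not far from the share over all genes. Smad3, which carries the signal of Tgfbr1, was higher by 0.77, and the SMAD corepressor Tgif1 by 1.37. Smurf2, a ligase that removes receptors and SMADs, fell by 1.04, and Ldlrad4, an inhibitor of SMAD activation, was higher by 0.84. Of 19 TGF-beta-induced targets, 12 were higher, 4 lower and 3 neither, with a median of 0.33. Tagln (1.93), Bhlhe40 (1.11) and Ccn2 (0.92) rose, while Smad7, the inhibitory SMAD induced by the pathway, fell by 1.94 (SE 0.15, adjusted p = 1.62e-11), with 116 ± 31.3 CPM in sham and 31.2 ± 10.1 CPM in Glenn libraries (SD, n = 15 each). Tagln is also a mural marker.

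**Figure D5:**
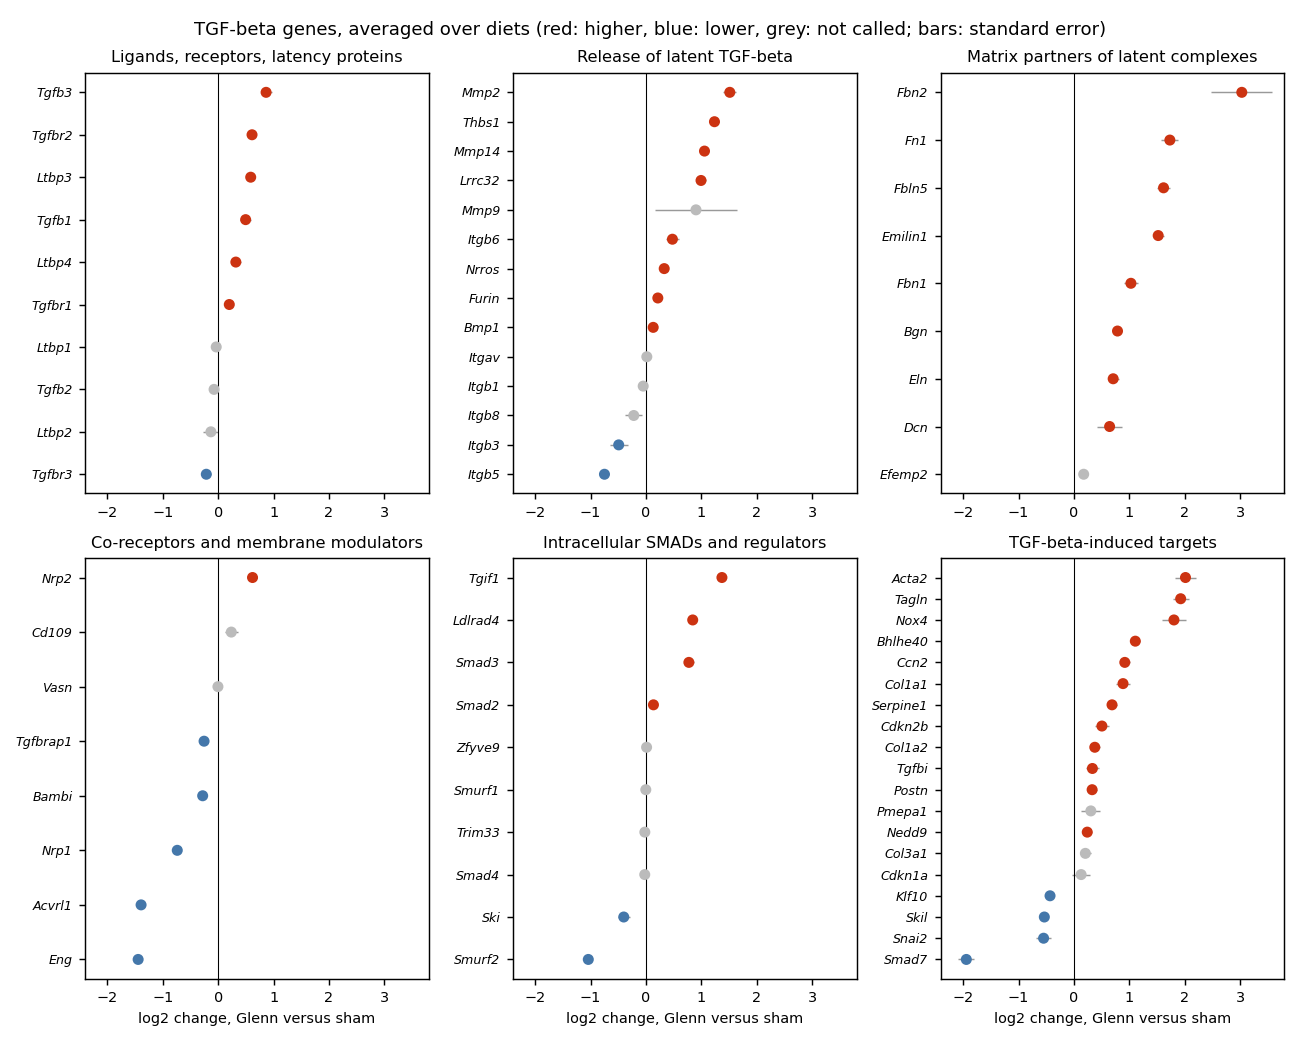
Log2 change between Glenn and sham libraries averaged over diets (horizontal axis) for the 10 genes and the 5 pathway lists, with bars for the standard error, red for called higher, blue for called lower and grey for not called. Matrix partners lie right of 0 and most co-receptors left of it, with Eng at -1.45 and Acvrl1 at -1.39.

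Likeness between genes was described from the deviations of log2(CPM + 1) from the group means over the 30 libraries, which share depth and preparation. Among the 45 pairs of the 10 genes, Pearson's r ran from -0.54 to 0.54 with a median of 0.15. Of the 12607 other genes compared, those most like Ltbp1 were Vwf, the clotting factor that marks venous and larger-vessel endothelium (r = 0.86), and Ece1, the endothelin-converting enzyme (r = 0.86). Vwf was 825 ± 279.5 CPM in Glenn control, 963 ± 229 CPM in Glenn deficient and 1146 ± 313 CPM in Glenn excess libraries (SD, n = 5 each), and was called higher on the excess than the control diet (0.72, adjusted p = 0.041). That contrast is the one whose calls over all genes fell from 237 to 2 without Glenn excess replicate 1. With surgery, averaged over diets, Vwf (-0.64, adjusted p = 2.92e-06) and Ece1 (-0.34, adjusted p = 1.40e-05) were called lower, while Ltbp1 was not called. The 5 venous markers, Vwf among them, summed to 815 to 1534 CPM (median 1000 CPM) in Glenn control and 1099 to 2104 CPM (median 1427 CPM) in Glenn excess libraries. Vwf, at means of 825 and 1146 CPM, made up most of these sums, so they largely repeat the Vwf values. The part of the venous markers in the Ltbp1 difference was not tested.

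The nearest genes to the ligands were Ppp1r9b (r = 0.83) and Tor4a (0.81) for Tgfb1, Sgk3 (0.78) and Arhgap22 (0.77) for Tgfb2, and Ccdc80 (0.84) and B4galt4 (0.82) for Tgfb3. For the receptors they were Opa1 (0.80) and Twsg1 (0.77) for Tgfbr1, Dag1 (0.80) and Igf2r (0.80) for Tgfbr2, and the cytokine receptor subunit Il6st (0.86) and the angiopoietin receptor Tek (0.79) for Tgfbr3. For the other binding proteins they were the matrix protein Postn (0.75) and Vstm4 (0.74) for Ltbp2, Kank1 (0.80) and Plxna3 (0.75) for Ltbp3, and the matrix protein Prelp (0.77) and the sulfatase Sulf1 (0.77) for Ltbp4. Tor4a and B4galt4 were called lower with surgery in the average (-0.16 and -0.17), against the direction of Tgfb1 and Tgfb3. Il6st was called higher (0.74) where Tgfbr3 was called lower.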

How the data were processed

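The authors deposited 1 table of estimated counts, with a column for each library. FastQC, Trim Galore, Picard, STAR and Salmon and the builds mRatBN7.2 and rn7 are named in the submitters' processing notes. Versions, annotation release and strandedness are not given in the sources used here. All 30 sample columns were used and 0 other sample columns were left out. Of the values 13.6% were not whole, and all were rounded.

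Low genes were dropped in edgeR 4.0.16 with filterByExpr (a minimum count of 10 and a total of 15). After TMM scaling (factors 0.938 to 1.06), 1 quasi-likelihood fit (R 4.3.3) held 6 group means and the library series. Benjamini-Hochberg adjustment covered 16171 genes, with calls at an adjusted p under 0.05. SEs are the change over the root of F. On simulated counts for the averaged contrast over 16171 genes, 76 of 100 genes changed by 1.5-fold and 81 of 100 changed by 2-fold were called, with 12 false calls. The direction of the call was checked for the 1.5-fold genes only. Far fewer genes were changed in the simulation than the 48.2% called in the data, so these rates need not hold for the data. Alternatives used DESeq2 1.42.0 and limma 3.58.1 (voom), other terms and libraries left out. The fits limited to high RT1-CE16, and that with RT1-CE16 level and sex (read from Ddx3y, cut at 10 CPM) as terms, were chosen after seeing the data.

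The 10 genes and the lists were chosen with earlier results of these data known. All 10 genes were named or counted in each comparison. From each pathway list the 4 genes with the smallest adjusted p in the averaged contrast were named (any other is said to be chosen after its values were seen), and for each of the 10 genes the 2 others (mean at least 1 CPM) with the highest r. Promoter letters came from RefSeq (GRCr8). Replicate pairs within groups differed far beyond sampling noise (chi-square per degree of freedom 20.1 to 119). Figures were drawn with matplotlib 3.10.9.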

Additional observations from a re-analysis of the deposited data

Results flagged for a closer look

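Of 60 sets of 5 libraries (10 genes in 6 groups), 3 held a library set apart from the other 4 by Dixon's ratio, and chance alone gives about 1 in 20, or 3 sets. Tgfb2 in sham excess replicate 1 was high, at 90.0 CPM against 58.3 to 67.0 CPM in the others, a gap of 0.726 of the range. Tgfbr1 in Glenn control replicate 4 was high, at 95.3 CPM against 80.5 to 84.3 CPM, a gap of 0.743 of the range. Ltbp4 in Glenn control replicate 3 was low, at 326 CPM against 494 to 514 CPM, a gap of 0.896 of the range. None of these 3 values decided a call of its gene.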

How the results depend on the processing

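Leaving out 1 library at a time, values kept their direction and side of the threshold in 930 cases, gained a call in 4, lost one in 31 and changed sign in 15. Under the other alternatives the counts were 604, 14, 39 and 39. The sign changes all concern changes that passed no test except that of Ltbp4 in the average. Depth limits the precision for genes of few counts, such as Tgfb3 (287 to 1411 estimated counts).

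The number of the 10 genes called moved as follows. With mural and fibroblast scores it was 3 in the average, 1 for the deficient and 1 for the excess diet. All genes called on the deficient and excess diets were then 1277 and 1146, against 4423 and 3549 in the main fit. On the control diet the number of the 10 was 2 with low RT1-CE16 libraries and 3 with high ones. All genes called there were 1563 and 2497, against 4023 in the main fit. The number of the 10 moved in other contrasts too. For excess against control diet in Glenn rats it was 0 with low RT1-CE16 libraries and 0 with only the groups compared, beside 11 and 10 of all genes. For excess against control diet in sham rats it was 1 with DESeq2, beside 210 of all genes in place of 39. For deficient against control diet in Glenn rats it was 1 with DESeq2 and 1 with limma voom, beside 63 and 43 of all genes in place of 1. For the interaction it was 1 with DESeq2, beside 35 of all genes in place of 1. With 1 library left out, the ranges were 6 to 7 in the average, 5 to 6 on the control, 3 to 4 on the deficient and 4 to 6 on the excess diet, 0 to 1 for deficient and 0 to 2 for excess against control in Glenn rats, 0 to 0 for both sham contrasts, and 0 to 1 for the interaction. Over all genes, excess against control diet in Glenn rats called 237, and 2 to 557 with 1 library left out and 10 to 524 otherwise. The averaged contrast called 7792, and 2171 with the scores. The cause was not tested.

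Sign changes in the log2 change between Glenn and sham were as follows. Without the series term, Ltbp1 on the deficient diet was 0.041 and Tgfb2 on the excess diet 0.18. In series A alone, Ltbp1 was 0.0092 in the average and 0.068 on the deficient diet, Ltbp4 was 0.0075 on the control diet, and on the excess diet Tgfbr1 was -0.018, Tgfbr3 0.032 and Ltbp2 -0.0046. With the RT1-CE16 term Ltbp4 on the control diet was 0.028, and with sex added 0.045. With low RT1-CE16 libraries, Ltbp1 was 0.027 in the average and 0.065 on the deficient diet, Ltbp4 was 0.25 on the control diet, and on the excess diet Tgfbr1 was -0.018, Tgfbr3 0.031 and Ltbp2 -0.0055. With high ones, on the deficient diet, Tgfb2 was 0.046 and Ltbp2 -0.28. With DESeq2 size factors Ltbp4 on the control diet was 0.012 and Tgfb2 on the excess diet 0.0042, and DESeq2 gave 0.012 and 0.0046. With limma voom Ltbp2 on the deficient diet was -0.026 and Tgfb2 on the excess diet 0.12. With only the groups compared, Ltbp4 on the control diet was 0.0021, and on the excess diet Tgfbr1 was -0.022, Tgfbr3 0.028 and Ltbp2 -0.0065. With the scores, Tgfb2 was 0.033 and Ltbp4 -0.0031 in the average, Tgfb2 was 0.094, Ltbp2 -0.93 and Ltbp4 -0.059 on the deficient diet, and on the excess diet Tgfb2 was 0.11, Tgfbr1 -0.022 and Ltbp2 -0.74. With 1 library left out, Ltbp1 on the deficient diet ran from -0.096 to 0.033, Ltbp2 there from -0.041 to 0.24, Tgfb2 there from -0.069 to 0.062, Ltbp4 on the control diet from -0.086 to 0.10, Tgfb2 on the excess diet from -0.068 to 0.12 and Tgfbr3 there from -0.18 to 0.019. The cause was not tested.

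With the replicate number as a block, 1 of the 10 genes (Tgfb3, -0.63, adjusted p = 0.0372) was called for excess against control diet in sham rats. Tgfbr3 lost its call in the average (-0.18, adjusted p = 0.0557) and gained one on the control diet (-0.35, adjusted p = 0.0448), and Ltbp1 lost its call on the excess diet (0.35, adjusted p = 0.0952). Over all genes, excess against control diet called 111 in place of 39 in sham and 34 in place of 237 in Glenn rats, and the interaction 2 in place of 1. In that fit Ltbp4 on the control diet was 0.013, and on the excess diet Tgfb2 was 0.038 and Tgfbr3 0.088. Libraries with the same number in different groups had deviations correlated at -0.25 to 0.29 (75 pairs, median 0.10), against a median of -0.02 for 300 pairs with different numbers, and 17 of 30 libraries correlated best with their own number, which is a hint from the data and not from the design. The labels give the numbers no meaning and not every pair was above 0.1, so the numbers are not taken as pairs. Replicate 1 was male and low in RT1-CE16 in every group, and replicate 2 was female and low in every group. The replicate block therefore overlaps with sex and RT1-CE16 level, and their part in the likeness of libraries with the same number was not tested. Limited to high RT1-CE16 libraries, only the surgery contrasts on the control and deficient diets were run.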
